A study of Mus musculus with 6 samples.

Results

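NF-kappaB subunits and feedback inhibitors were examined as 10 genes, chosen by symbol from the deposited table of 52550 genes. They were the 5 subunits Nfkb1, Nfkb2, Rela, Relb and Rel, the inhibitors Nfkbia, Nfkbie and Nfkbiz, the ubiquitin-editing enzyme Tnfaip3 and the kinase Ikbke. All 10 were found, each on 1 identifier, and all 10 passed the filter on low counts that left 16402 genes for testing. The series compared macrophages of MSR1 KO mice with those of MSR1 WT mice. MSR1 is macrophage scavenger receptor 1, a surface receptor for modified lipoproteins and other polyanionic ligands. There were 3 libraries of each genotype, all of strain C57BL/6, and the study's methods name no cell type to which the knockout was restricted and controls of the same background. The ages of the mice were not given in the sources used here. In both groups the cells were labelled BMM derived macrophages. They had grown from bone marrow for 7 days in 25 ng/ml M-CSF, the growth factor that drives macrophage differentiation. They had then shared a transwell co-culture for 48 h with BMSCs, which the paper spells out as bone marrow stem cells. No culture without BMSCs and no culture given an inflammatory stimulus was analysed here, so the values describe this 1 condition. The study calls the 3 libraries of a group biological replicates. Where they did not come from separate animals, the p-values measure only the spread between libraries.

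NF-kappaB is a family of dimeric transcription factors that most cells hold ready in the cytoplasm. Rela, Rel and the Nfkb1 product make up the dimers of the classical arm, in which an IkappaB protein such as that of Nfkbia masks the dimer until the IkappaB kinase complex marks it for degradation, whereas Relb and the Nfkb2 product serve the slower alternative arm. Several of these genes are themselves NF-kappaB targets: freed dimers raise Nfkbia, Nfkbie and Tnfaip3, whose products end the response, and also Nfkb2, Rel and Relb, so their RNA is often read as a record of recent pathway activity in macrophages.

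Many promoters of such genes carry kappaB sites, and 4 promoters are printed as examples. They are 2 of the feedback inhibitors, 1 of the subunit with the largest difference between the groups, and that of Cxcl10. Cxcl10 is an inflammatory chemokine gene outside the 10 whose RNA was higher in MSR1 KO. Matches were not tested against the RNA values. The sequences are RefSeq promoters on GRCm38.p6, each covering the 250 bases before the transcription start, 5′ to 3′ on the gene's strand. Nfkbia was read from chr12:55492648-55492897, Tnfaip3 from chr10:19015411-19015660, Rel from chr11:23770970-23771219 and Cxcl10 from chr5:92348890-92349139, all on the minus strand. Capitals mark letters matching the kappaB consensus of 10 letters or the core of the interferon-stimulated response element, both searched on both strands, and overlapping matches run together.
Nfkbia: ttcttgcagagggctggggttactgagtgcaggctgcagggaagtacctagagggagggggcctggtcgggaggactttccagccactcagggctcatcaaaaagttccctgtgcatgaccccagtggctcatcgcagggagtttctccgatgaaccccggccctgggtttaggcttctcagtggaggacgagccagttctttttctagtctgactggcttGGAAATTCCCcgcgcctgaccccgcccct
Tnfaip3: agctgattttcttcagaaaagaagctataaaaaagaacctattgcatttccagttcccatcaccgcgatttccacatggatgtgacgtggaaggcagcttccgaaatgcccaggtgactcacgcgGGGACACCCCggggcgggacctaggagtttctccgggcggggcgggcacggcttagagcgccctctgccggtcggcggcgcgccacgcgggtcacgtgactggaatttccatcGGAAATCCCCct
Rel: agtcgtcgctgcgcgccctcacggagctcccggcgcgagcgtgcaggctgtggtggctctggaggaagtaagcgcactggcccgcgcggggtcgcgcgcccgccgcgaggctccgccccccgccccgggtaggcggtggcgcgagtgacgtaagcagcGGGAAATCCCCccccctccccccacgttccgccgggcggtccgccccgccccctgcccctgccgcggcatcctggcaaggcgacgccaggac
Cxcl10: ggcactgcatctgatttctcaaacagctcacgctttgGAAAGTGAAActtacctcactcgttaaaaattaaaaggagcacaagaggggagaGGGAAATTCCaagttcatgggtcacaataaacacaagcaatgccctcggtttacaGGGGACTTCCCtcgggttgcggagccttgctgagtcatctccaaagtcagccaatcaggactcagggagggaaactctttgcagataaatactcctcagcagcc

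Of the 10 genes, 7 were found in the promoter table, with 10 promoter windows, 3 of them of Nfkb2 and partly overlapping. The kappaB consensus was present in 7 of these 10 windows (70.0%) and in 5 genes, namely Nfkb2, Rel, Nfkbia, Nfkbie and Tnfaip3, against 2382 of 32851 windows over all genes (7.25%). The windows of Rela and Ikbke held no such match. The interferon element core was in 0 of the 10 windows, against 978 of all windows (2.98%). In the list of interferon-response genes described below, it was in 8 of 15 windows (53.3%), and the kappaB consensus in 1 of 15 (6.67%). Of the printed promoters, that of Cxcl10 held both, with 3 kappaB matches and 1 interferon element core. A match describes letters only and is not evidence of binding.

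The question for the 10 genes was whether loss of MSR1 went with a different RNA level of the pathway's own components. Their RNA levels were close in the 2 genotypes. Differences ran from -0.23 (Tnfaip3) to 0.26 (Rel) on the log2 scale, 5 positive and 5 negative, with a median of -0.004 against -0.002 over all tested genes. In edgeR's quasi-likelihood test with Benjamini-Hochberg adjustment, 0 of 10 passed an adjusted p of 0.05, where 805 of 16402 genes (4.91%) did, or 7.19% of the 6844 genes with a mean count at least that of Nfkbie, the least counted of the 10, and the adjusted p-values were 0.22 to 0.93. One gene, Rel, had an unadjusted p under 0.05, where 18.9% of all tested genes did. DESeq2 gave 0 of 10 after adjustment and 1 before. By the study's definition of a differentially expressed gene, a fold above 1.5 with an unadjusted p under 0.05, 0 of 10 passed, where 8.64% of all genes did. With background rates this low a count of 0 among 10 genes does not set them apart, and the intervals say more. The 95% interval of all 10 genes lay within 1.5-fold either way, from 0.689-fold at the lowest bound to 1.40-fold at the highest. That held for 50.0% of all tested genes and for 83.5% of those 6844 genes. In bulk RNA a lower share of expressing cells and less RNA per cell cannot be told apart.

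**Figure D1:**
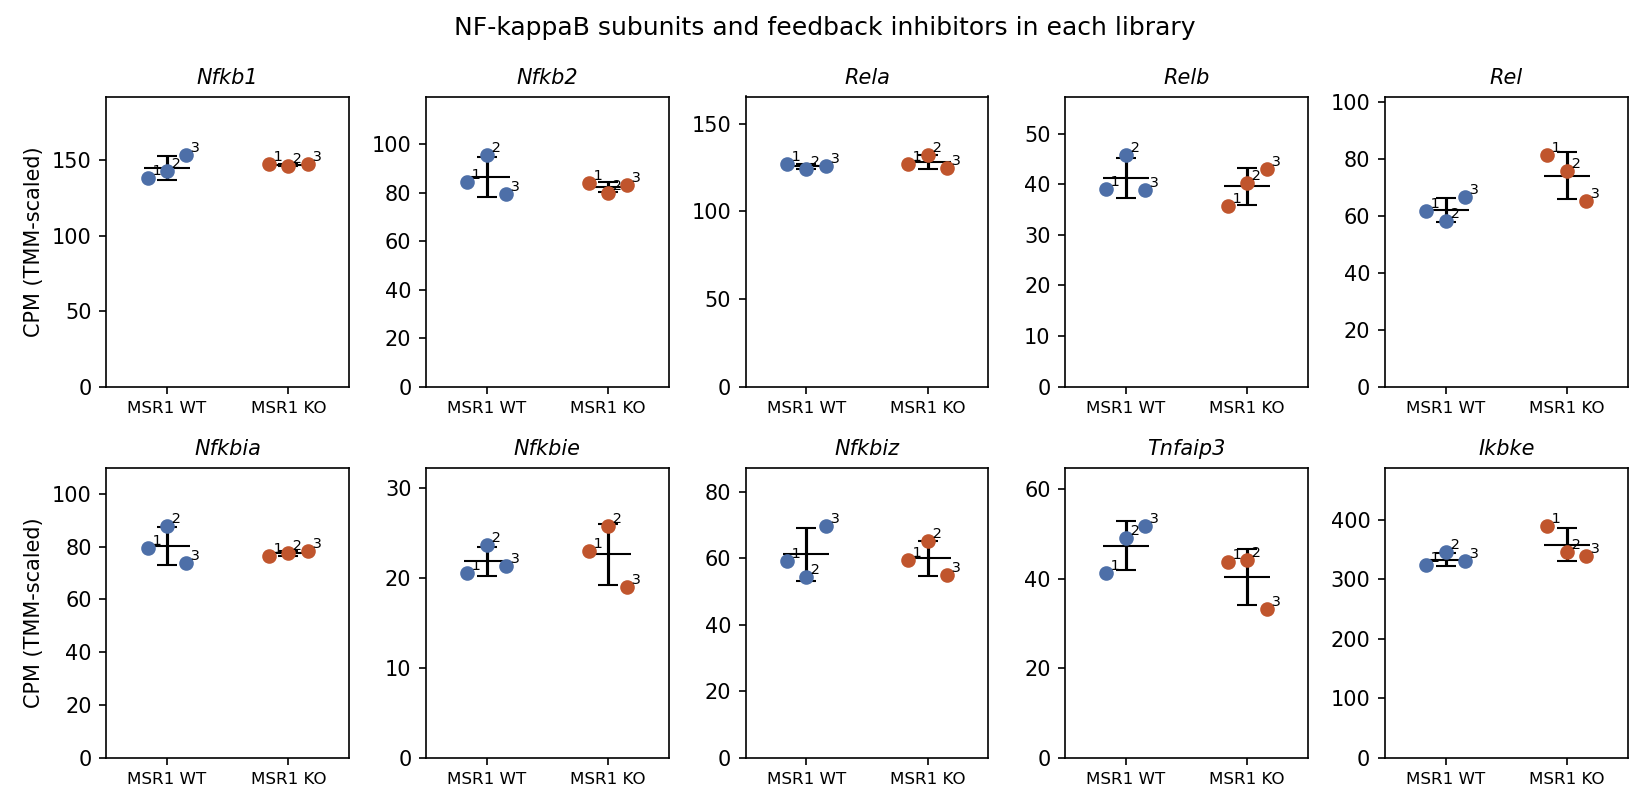
Library-scaled counts (TMM-scaled CPM, linear axis from 0) of the 10 genes in the 3 MSR1 WT (blue) and 3 MSR1 KO (orange) libraries, numbered by replicate, with bars for the mean and SD. The groups overlapped for all 10 genes, and Rel was the gene with the largest difference, at a mean of 74.1 in MSR1 KO and 62.1 in MSR1 WT.

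Levels below are CPM, the count scaled to library total, after TMM scaling, which sets the libraries' totals on a common scale, and are compared within a gene only. Among the subunits, Rela (ENSMUSG00000024927.7, chr19:5637483-5648130 on GRCm38), which carries the main transactivating domain of the classical arm, had 127, 132 and 125 CPM in MSR1 KO and 127, 124 and 126 CPM in MSR1 WT. The groups overlapped, and replicate 2 of MSR1 KO was the highest library. The log2 fold change was 0.03 (SE 0.065, 95% interval -0.12 to 0.17, adjusted p = 0.89, edgeR), and without that library it was 0.0002. Nfkb1 (ENSMUSG00000028163.17, chr3:135584655-135691547), which encodes the p105 precursor of p50, had 148, 147 and 147 CPM in MSR1 KO and 139, 143 and 154 CPM in MSR1 WT. The MSR1 KO values lay inside the MSR1 WT range, with a coefficient of variation of 0.387% against 5.45% in MSR1 WT. The log2 fold change was 0.02 (SE 0.068, 95% interval -0.14 to 0.18), and without replicate 1 of MSR1 WT it was -0.0139.

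Rel (ENSMUSG00000020275.9, chr11:23736847-23770970), the c-Rel subunit of haematopoietic cells, had 81.6, 75.6 and 65.2 CPM in MSR1 KO and 61.6, 58.0 and 66.6 CPM in MSR1 WT. Of the 3 MSR1 KO libraries, 2 lay above every MSR1 WT library, and replicate 3 of MSR1 KO lay below replicate 3 of MSR1 WT, so the groups overlapped. The means were 74.1 ± 8.27 and 62.1 ± 4.31 CPM (SD, n = 3 each), a fold of 1.19 with a 95% interval of 1.02 to 1.40. The log2 fold change of 0.26 (SE 0.10) had an unadjusted p of 0.035 and an adjusted p of 0.22 in edgeR's quasi-likelihood test, and did not pass. The exact two-sided permutation test over the 6 libraries gave p = 0.2, where 0.1 is the smallest it can give.

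The 2 genes of the alternative arm had slightly lower means in MSR1 KO, within the spread of the libraries. Nfkb2 (ENSMUSG00000025225.14, chr19:46304737-46312090), the p100 precursor of p52, had 84.1, 80.0 and 83.1 CPM in MSR1 KO and 84.3, 95.8 and 79.7 CPM in MSR1 WT, and its log2 fold change was -0.07 (SE 0.086, 95% interval -0.27 to 0.13). Relb (ENSMUSG00000002983.17, chr7:19606217-19629438), the partner of p52, had 35.7, 40.2 and 42.9 CPM against 39.0, 45.9 and 38.9 CPM, and its log2 fold change was -0.06 (SE 0.10, 95% interval -0.30 to 0.18). For both genes replicate 2 of MSR1 WT was the highest library, and without it the differences were positive, at 0.0064 for Nfkb2 and 0.0246 for Relb. Opposite-strand genes cover part of the exons of Nfkb2, AC114539.1 with 11.6% of its exon bases and Psd with 6.52%, and the strand setting of the counting was not given in the sources used here. The same holds for 1.76% and 0.721% of the exon bases of Ikbke.

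Among the inhibitors, Nfkbia (ENSMUSG00000021025.8, chr12:55489410-55492647), which encodes IkappaB alpha, the inhibitor resynthesized most quickly after activation, had 76.5, 77.4 and 78.4 CPM in MSR1 KO and 79.3, 87.8 and 73.6 CPM in MSR1 WT. All 3 MSR1 KO values fell within the MSR1 WT range. The log2 fold change was -0.05 (SE 0.083, 95% interval -0.24 to 0.14, adjusted p = 0.81, edgeR), and without replicate 2 of MSR1 WT it was 0.0184. Nfkbie (ENSMUSG00000023947.7, chr17:45555716-45563169), IkappaB epsilon, had 23.0, 25.8 and 19.0 CPM against 20.6, 23.7 and 21.4 CPM. Here the MSR1 KO libraries enclosed all 3 MSR1 WT values, and the log2 fold change was 0.05 (SE 0.13, 95% interval -0.25 to 0.34). Without replicate 2 of MSR1 KO it was -0.0582. Nfkbiz (ENSMUSG00000035356.16, chr16:55811375-55838899), a nuclear IkappaB that acts as a cofactor for secondary targets, had 59.6, 65.3 and 54.9 CPM against 59.2, 54.4 and 69.7 CPM. Its lowest and highest values were both MSR1 WT libraries, and the log2 fold change was -0.03 (SE 0.11, 95% interval -0.28 to 0.23). Without replicate 3 of MSR1 KO it was 0.0360, and without replicate 3 of MSR1 WT 0.0767.

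Tnfaip3 (ENSMUSG00000019850.11, chr10:19000910-19015657) encodes A20, the deubiquitinating enzyme that shuts off signalling above the IkappaB kinases. It had 43.7, 44.3 and 33.3 CPM in MSR1 KO and 41.4, 49.1 and 51.9 CPM in MSR1 WT. Replicate 3 of MSR1 KO was the lowest library, the other two lay between replicates 1 and 2 of MSR1 WT, and the groups overlapped. The means were 40.5 ± 6.19 and 47.5 ± 5.44 CPM (SD, n = 3 each), and the log2 fold change was -0.23 (SE 0.13, 95% interval -0.54 to 0.08, adjusted p = 0.41, edgeR). Without replicate 3 of MSR1 KO the difference was -0.10, and the exact permutation test over all 6 libraries gave p = 0.3. Ikbke (ENSMUSG00000042349.13, chr1:131254343-131279606), the IKK epsilon kinase, acts with TBK1 on the interferon regulatory factor IRF3 and is itself induced by NF-kappaB. It had 389.9, 346 and 339 CPM in MSR1 KO and 324, 346 and 329.9 CPM in MSR1 WT, and replicate 2 of MSR1 WT lay above replicate 3 of MSR1 KO. The log2 fold change was 0.10 (SE 0.075, 95% interval -0.07 to 0.28, adjusted p = 0.52, edgeR), and without replicate 1 of MSR1 KO it was 0.05.

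The groups were without overlap for 0 of the 10 genes, where they were for 25.5% of all tested genes. Counts ran from 827 for Nfkbie to 16407 for Ikbke in a library, and counting alone gives an error of 3.48% at the lowest of them. Replicate 2 of MSR1 WT was the highest of the 6 libraries for 3 genes (Nfkb2, Relb and Nfkbia) and the lowest for 3 others (Rela, Rel and Nfkbiz). Both MSR1 KO replicates 1 and 2 were highest for 2 genes each, and replicate 3 of MSR1 WT for 3 (Nfkb1, Nfkbiz and Tnfaip3). The highest library thus differed from gene to gene within both groups.

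**Figure D2:**
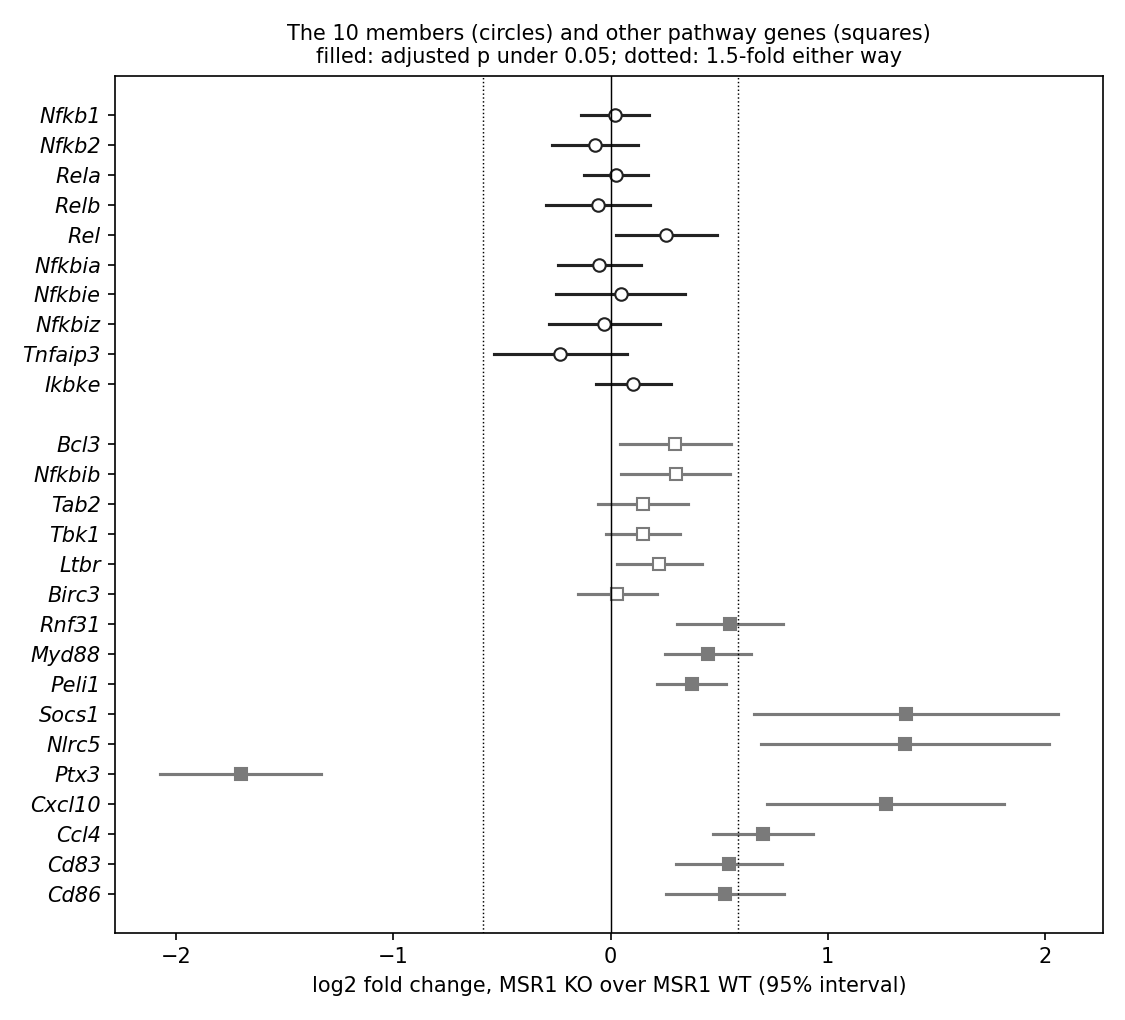
Log2 fold change of MSR1 KO over MSR1 WT with its 95% interval for the 10 genes (circles) and the other named genes of the pathway (squares), filled where the adjusted p was under 0.05, with dotted lines at 1.5-fold either way. All 10 circles are open with intervals inside the dotted lines, between -0.54 and 0.49, while Ptx3 lies at -1.70 and Socs1 and Nlrc5 at 1.36.

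Levels were compared between genes only per length, as TPM, a transcript-level share scaled to a fixed total, computed from the counts over the union of each gene's exons. By mean over the 6 libraries, Nfkbia was highest at 155 TPM (146 to 177), followed by Rela at 131 (122 to 138) and Ikbke at 122 (113 to 137). Nfkb2 stood at 58.5 TPM (54.5 to 67.9), and Nfkb1 and Nfkbiz at 38.5 (36.4 to 41.6) and 38.3 (32.9 to 45.2). Relb at 33.0 TPM, Rel at 29.0, Nfkbie at 23.2 and Tnfaip3 at 19.4 (13.9 to 23.4) followed. Of the steps in this order, 3 were clear of the spread over libraries, namely Nfkbia over Rela, Ikbke over Nfkb2 and Nfkb2 over Nfkb1, and in the other 6 steps the ranges of neighbours overlapped. The place of Nfkb1 rests on the length used, since its exon union of 12061 bases is much longer than its longest single transcript. With the longest single transcript as length its mean was 88.0 TPM, and Ikbke at 147 TPM was above Nfkbia at 125.

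The make-up of the family was also close in the 2 genotypes. Of the summed TPM of the 5 subunits, Rela made up 45.3 ± 0.840% in MSR1 KO and 45.1 ± 1.37% in MSR1 WT (SD, n = 3 each), and Rel 10.8 ± 1.13% and 9.17 ± 0.771%. The share of the alternative-arm genes Nfkb2 and Relb together was 30.6 ± 1.32% and 32.5 ± 2.49%. All these shares rest on the exon union as length. With the longest single transcript the mean level was 88.0 TPM for Nfkb1 and 116.7 for Rela, where the exon union gave 38.5 and 131. The ratio of Rel to Rela, both partners of p50, was 0.265, 0.235 and 0.215 in MSR1 KO and 0.199, 0.192 and 0.218 in MSR1 WT, again with an overlap only through the third replicates (exact permutation p = 0.2). The ratio of the inhibitor Nfkbia to the subunit Rela was 1.15, 1.12 and 1.20 in MSR1 KO and 1.19, 1.35 and 1.12 in MSR1 WT (exact permutation p = 0.6). Of 12 such shares, sums and ratios compared, all overlapped between the groups, with exact permutation p-values of 0.2 to 1.0 and adjusted values of 0.686 to 1.0.

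**Figure D3:**
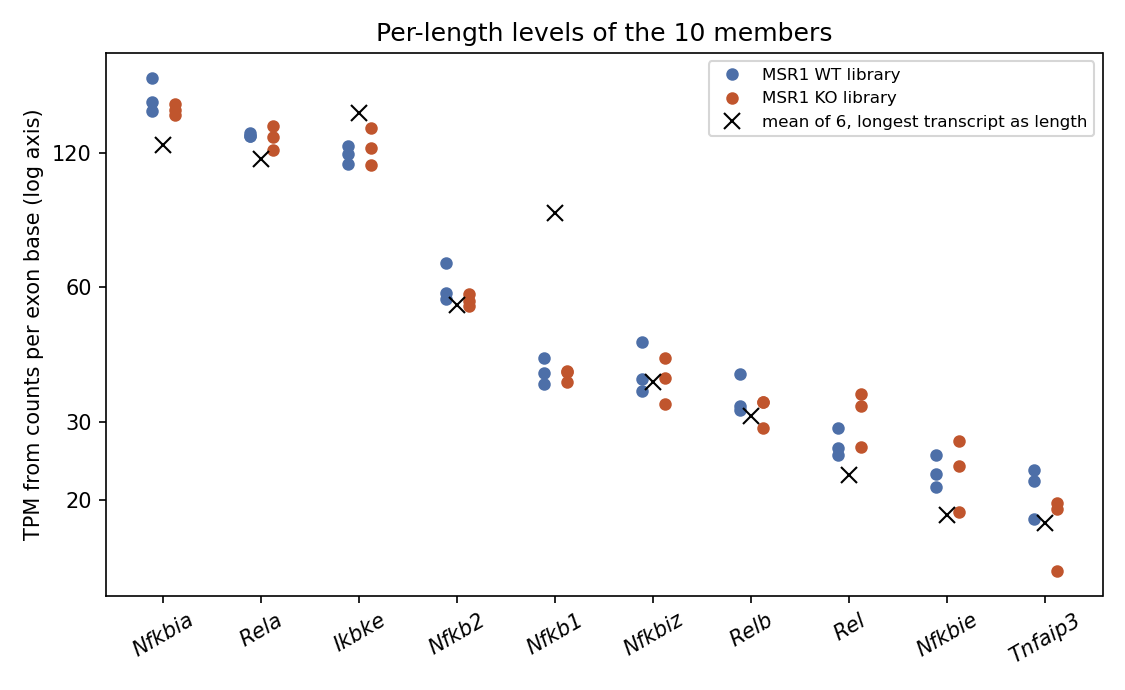
TPM of the 10 genes on a log axis in the 3 MSR1 WT (blue) and 3 MSR1 KO (orange) libraries, in order of the mean, with crosses for the mean when the longest single transcript is used as the length. Nfkbia at 155 and Tnfaip3 at 19.4 TPM are the ends of the order, and the cross of Nfkb1 at 88.0 lies far above its points.

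Of 105 other genes of the pathway, in 6 lists chosen by role, 99 were tested. Of these, 9 were higher in MSR1 KO and 1 was lower, where 2.25% (369 of 16402) and 2.66% of all tested genes were. Among genes with a mean count at least that of Nfkbie, 7.19% passed in either direction. No rate matched to the counts of these lists was computed. The median log2 fold change of the 99 genes was 0.12 and 75 were positive, against a median of -0.002 over all tested genes. Of the 4 other IkappaB family genes, 0 passed in edgeR or DESeq2, with a median of 0.24. In edgeR 2 of them had an unadjusted p under 0.05, where 18.9% of all tested genes did. Bcl3, a nuclear IkappaB that binds p50 and p52, had 40.8, 42.0 and 36.7 CPM in MSR1 KO and 36.6, 32.2 and 28.3 CPM in MSR1 WT, with KO replicate 3 just above WT replicate 1. Its log2 fold change was 0.30 (SE 0.11, adjusted p = 0.19, edgeR). For Nfkbib, which encodes IkappaB beta, the values were 32.3, 39.2 and 42.4 CPM against 30.7, 31.6 and 30.3 CPM, without overlap, with a log2 fold change of 0.30 (SE 0.11, adjusted p = 0.18, edgeR). Of the 12 kinases and scaffolds of the IkappaB kinase and TBK1 complexes, 0 passed in edgeR or DESeq2 and 0 had an unadjusted p under 0.05 in edgeR. Tbk1, the kinase that works alongside Ikbke, had a log2 fold change of 0.15 (SE 0.074, adjusted p = 0.32), and Tab2, an adaptor of the TAK1 kinase, one of 0.15 (SE 0.090, adjusted p = 0.44). Of 10 tested alternative-arm genes, 0 passed in edgeR, and in DESeq2 1 passed as higher and 1 as lower. In edgeR 4 had an unadjusted p under 0.05, with differences in both directions, against 18.9% of all tested genes. The lymphotoxin beta receptor gene Ltbr had a log2 fold change of 0.22 (SE 0.085, adjusted p = 0.20), and the ubiquitin ligase gene Birc3 one of 0.03 (SE 0.079, adjusted p = 0.88).

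The 5 calls among regulators lay in the receptor-proximal adaptors (3 of 19 higher, median 0.14) and the other negative regulators (2 of 18 higher, median 0.08), with 0 lower in both. Rnf31, the catalytic subunit of the linear ubiquitin ligase, had 62.0, 75.1 and 68.5 CPM in MSR1 KO and 45.1, 43.0 and 52.4 CPM in MSR1 WT, a log2 fold change of 0.55 (SE 0.11, adjusted p = 0.030, edgeR). Myd88, the adaptor of most Toll-like receptors, had 91.5, 102 and 99.5 CPM against 67.2, 69.7 and 78.0 CPM, a log2 fold change of 0.45 (SE 0.086, adjusted p = 0.029, edgeR). The ubiquitin ligase gene Peli1 had 85.3, 86.1 and 86.5 CPM against 63.3, 67.0 and 68.8 CPM, a log2 fold change of 0.37 (SE 0.070, adjusted p = 0.027, edgeR). In these 3 genes every MSR1 KO library exceeded every MSR1 WT library. Socs1, a suppressor of cytokine signalling, was low, at 5.26, 5.30 and 4.41 CPM against 2.13, 1.12 and 2.59 CPM (log2 fold change 1.36, SE 0.30, adjusted p = 0.045, edgeR). Nlrc5, known as an inducer of MHC class I genes and also described as a brake on NF-kappaB, had 204, 287 and 115 CPM against 76.2, 67.8 and 93.1 CPM (log2 fold change 1.36, SE 0.29, adjusted p = 0.039, edgeR). These 2 genes are themselves known interferon targets. The promoter windows of Socs1 and Myd88 held 2 and 1 matches to the interferon element core, and those of Rnf31 and Peli1 held 0. For Nlrc5 no window was searched. The core was in 2 of 19 windows (10.5%) of the adaptors and 1 of 18 (5.56%) of the other negative regulators, against 2.98% of all windows.

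Of 36 tested NF-kappaB target genes, 4 were higher and 1 was lower, with a median of 0.21, where 2.25% and 2.66% of all tested genes were. Ccl4, a chemokine gene, had 39.5, 41.7 and 38.1 CPM in MSR1 KO and 23.5, 22.4 and 27.4 CPM in MSR1 WT, a log2 fold change of 0.70 (SE 0.10, adjusted p = 0.015, edgeR). Cxcl10 rose from 3.47, 2.97 and 5.13 CPM in MSR1 WT to 8.55, 11.2 and 8.09 CPM in MSR1 KO (log2 fold change 1.27, SE 0.24, adjusted p = 0.027, edgeR). Cd83 and the costimulatory ligand gene Cd86, both linked to antigen presentation, rose by log2 fold changes of 0.55 (SE 0.11) and 0.53 (SE 0.12). Ptx3, which encodes the soluble pattern receptor pentraxin 3 and is made by macrophages and stromal cells, was the exception, at 8.19, 10.3 and 8.74 CPM in MSR1 KO and 31.9, 23.4 and 33.3 CPM in MSR1 WT (log2 fold change -1.70, SE 0.16, adjusted p = 0.0040, edgeR). Il6, Il12b, Csf2 and Csf3 were too low to be tested.

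Most of the higher calls did not pass when most of the single libraries were left out in turn, while the differences stayed positive. Rnf31, Myd88, Peli1, Socs1, Cxcl10, Cd83 and Cd86 did not pass when replicate 1, 2 or 3 of MSR1 KO or replicate 1 or 2 of MSR1 WT was left out, and over all alternatives to the fit their adjusted p-values reached 0.123, 0.121, 0.115, 0.135, 0.118, 0.110 and 0.168. Nlrc5 did not pass without replicate 1 or 2 of MSR1 KO or any single MSR1 WT replicate (highest adjusted p over all alternatives 0.151), nor Ccl4 without replicate 1 of MSR1 KO or replicate 1 or 2 of MSR1 WT (highest 0.0709). The log2 fold changes over all alternatives were 0.48 to 0.64 for Rnf31, 0.40 to 0.51 for Myd88, 0.34 to 0.40 for Peli1, 0.64 to 0.79 for Ccl4, 0.46 to 0.66 for Cd83 and 0.45 to 0.66 for Cd86. Those of the genes with larger differences were 1.08 to 1.62 for Socs1, 1.02 to 1.64 for Nlrc5 and 1.11 to 1.53 for Cxcl10. Ptx3 passed each time. Of the 16 interferon-response genes, 14 were higher in MSR1 KO and 0 lower, with a median log2 fold change of 1.31, and their summed level was 3188 to 4752 CPM in MSR1 KO and 1202 to 1996 CPM in MSR1 WT. The part of this difference in the pathway's other genes was not tested.

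**Figure D4:**
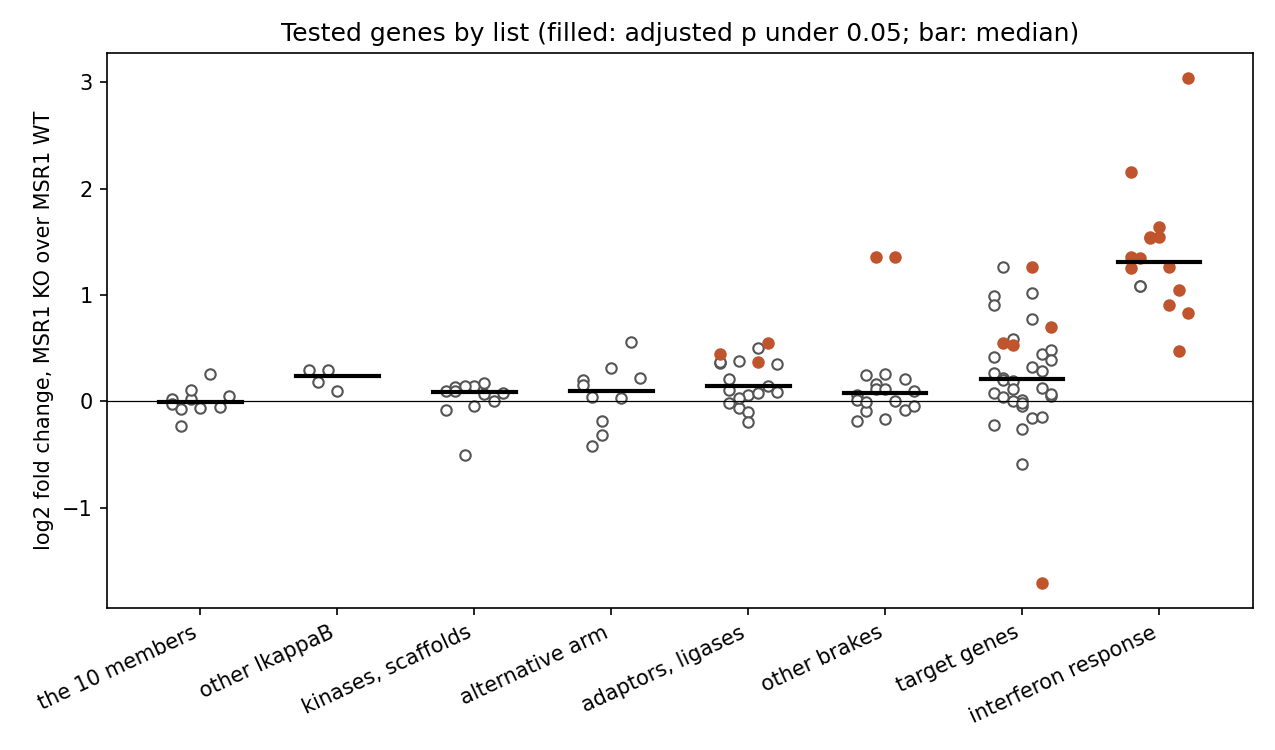
Log2 fold change of MSR1 KO over MSR1 WT for each tested gene of the 10 subunits and inhibitors, the 6 other pathway lists and the interferon-response list, filled where the adjusted p was under 0.05, with a bar at each list's median. The 10 genes have the median nearest 0 of the 8 lists (-0.004) and no filled point, against 1.31 and 14 filled points for the interferon-response genes.

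Library totals were 36143518 to 47417448 counts. Msr1, the targeted gene, had 59.0, 45.8 and 43.0 CPM in MSR1 KO and 183, 193 and 223 CPM in MSR1 WT (log2 fold change -2.02, SE 0.14, adjusted p = 0.0012, edgeR), lower in every MSR1 KO library, where reads on the gene nevertheless remained. All 12 macrophage markers were detected in all libraries, at a summed 27033 to 28299 CPM in MSR1 KO and 26508 to 28992 CPM in MSR1 WT, with 1 of 12 higher (Fcgr1). All 12 stromal markers were detected too, at 1757 to 2308 CPM in MSR1 KO and 2355 to 2865 CPM in MSR1 WT without overlap, and 3 of 12 (Pdgfra, Pdgfrb and Cxcl12) were lower and 0 higher. Of the 12, 10 had negative and 2 positive log2 fold changes, the positive ones being Thy1 at 1.31 (adjusted p = 0.091, edgeR), which was higher by the study's definition, and Lum at 0.46 (adjusted p = 0.79). The part of stromal RNA in the result for Ptx3 was not tested. Of other cell types, 7 of 10 dendritic cell markers were detected in all libraries (49.5 to 88.8 CPM against 73.9 to 106), as were 8 of 8 neutrophil markers (436 to 720 against 297 to 508). Of 8 B cell markers, 4 were, at 266 to 314 CPM in MSR1 KO and 188 to 237 CPM in MSR1 WT without overlap. Among them Ebf1 was lower (log2 fold change -1.07), and Ighm (0.64, adjusted p = 0.067, edgeR) was higher by the study's definition.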

How the data were processed

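Counts per gene came from mRNA-seq in 6 libraries grouped by the genotype in their labels. The submitters' processing notes name fastp 0.17.1, HISAT2 2.1.0 and DESeq2 1.18.1 in R 3.4.3, whereas the paper's methods name TopHat; which aligner made the table, the counting program and its strand setting are not given in the sources used here. The authors deposited raw counts for each gene and library, with a signal column holding counts divided by a size factor, which was not used. The deposited log2 fold change, p-value and adjusted p-value columns hold the authors' own comparison and were not used. GENCODE on GRCm38 holds 52403 of the 52550 identifiers, 49909 of them at an identical position, among these 8 of the 10 members (all but Nfkb2 and Nfkbie); positions are those of the deposited table. The authors' adjusted p-value column, which belongs to no single sample, was the 1 value column left unmapped, and 0 rows lacked a gene name.

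In R 4.3.3, edgeR 4.0.16 filtered low genes (filterByExpr), computed TMM factors and ran the quasi-likelihood test (glmQLFit, glmQLFTest), and p-values were adjusted by Benjamini-Hochberg over the 16402 tested genes. Standard errors were derived as the log2 fold change divided by root F. Exact two-sided permutation tests used scipy 1.17.1. Scripts were tested on simulated counts. Alternatives were a Wald test in DESeq2 1.42.0, edgeR with the DESeq2 size factors or with totals only, a filter of 10 counts per library or none, a replicate block, omission of single libraries, and the longest transcript as gene length. Counting errors cover counting only. The members and the gene lists were chosen with earlier results of these data known, so no list is independent support. Named genes were the 10 members, Msr1 and, from each pathway list, up to 5 genes with an adjusted p under 0.05 and the largest difference, or, where fewer than 2 passed, the 2 with the most counts. The cell type markers named fall outside this rule and were named after their values were seen, as were Psd and AC114539.1. Promoters came from RefSeq.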

Additional observations from a re-analysis of the deposited data

How the results depend on the processing

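Of the 10 members, 0 passed under each of the 12 alternatives to the fit, and Rel, with log2 fold changes of 0.19 to 0.34, had its lowest adjusted p of 0.099 without replicate 3 of MSR1 KO. Over the members and alternatives, 110 values kept their direction and 10 changed it. With library size alone, which moves the median of all genes to -0.03, Nfkb1 was -0.0124 and Rela -0.0061. With 1 library left out, ranges were -0.0139 to 0.0631 for Nfkb1, -0.1289 to 0.0064 for Nfkb2, -0.1158 to 0.0246 for Relb, -0.1098 to 0.0184 for Nfkbia, -0.0582 to 0.1625 for Nfkbie, -0.1062 to 0.0767 for Nfkbiz and -0.0174 to 0.0767 for Birc3. With the longest single transcript as length, mean levels were 88.05 TPM for Nfkb1, 116.7 for Rela, 22.78 for Rel, 124.8 for Nfkbia, 18.52 for Nfkbie and 147.4 for Ikbke. Over all genes, 369 were higher and 436 lower in edgeR, against 727 and 850 in DESeq2, 237 and 288 with no filter, 59 and 78 with the replicate block, and 18 to 407 and 53 to 372 with 1 library left out, the lowest without replicate 1 of MSR1 WT. The 6 pathway lists had 9 higher and 1 lower, against 16 and 3 in DESeq2, 0 and 1 with the replicate block, and 0 to 10 higher with 1 library left out. The deviations of same-numbered libraries had correlations of -0.026, 0.019 and -0.005, and those of differently numbered libraries -0.034 to 0.037. Whether the numbers pair the samples by design was not tested. Fewer libraries enter each left-out fit, and for the other changes the cause was not tested.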
